A study of Homo sapiens with 4 samples.

Results

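Ribosome biogenesis factors are the proteins that process, modify and fold ribosomal RNA and load ribosomal proteins onto it, and 50 genes for them, named by symbol, were examined among the 28198 genes of the table. The measurement was polysome profiling followed by RNA-seq in MDA-MB-231, a breast cancer cell line. Endogenous METTL3, the catalytic subunit of the complex that writes N6-methyladenosine on mRNA, had been depleted in these cells, and either wild-type METTL3 (WT) or METTL3 with the K177Q substitution, which mimics acetylation of that lysine, was put back by lentivirus. All cells received cycloheximide at 100 µg/mL for 5 min, and lysates were separated on a 10 to 50% sucrose gradient into a sub-polysome fraction, which holds free ribosomal subunits and single ribosomes, and a polysome fraction, in which mRNA carries several ribosomes.

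The 4 groups were therefore WT sub-polysome, WT polysome, K177Q sub-polysome and K177Q polysome, all in METTL3-depleted and reconstituted cells, with 1 poly(A)-selected library analysed in each, taken from the replicate labelled 2. With 1 library analysed per condition, replicate error was not measured, conditions were not tested against each other, and each difference describes these libraries. Values are FPKM, fragments per kilobase of transcript scaled to the mapped fragments of the library, so a level is relative to the rest of its library, and less RNA of a gene and more RNA of other genes cannot be told apart. Translation efficiency is polysome FPKM divided by sub-polysome FPKM, given as log2 after 0.1 was added to each value, and its K177Q to WT ratio is the difference of the log2 values. Genes whose average across the libraries reached 1 FPKM were kept (10905 genes, 48 of them among the 50 factors), and 1.5-fold was the size at which a difference was counted. The FPKM totals of the libraries ran from 767949 in K177Q polysomes to 1037594 in the K177Q sub-polysome fraction, with approximately 22800000 to 24200000 fragments behind each. Mesenchymal markers of MDA-MB-231 were present (VIM 677 to 1543 FPKM, with CD44, AXL and CAV1 also detected). The hormone receptor genes ESR1 and PGR were at or near 0, and SPARC, listed as a marker, was at no more than 0.24 FPKM. The epithelial markers examined were not all low: KRT18 was at 316 to 719 FPKM, EPCAM at up to 9.91 FPKM and CDH1 at no more than 0.632 FPKM. METTL3 itself was at 9.39 FPKM in the WT and 5.07 in the K177Q sub-polysome library, and at 38.7 and 29.5 in the polysome libraries.

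Ribosome production starts in the nucleolus, where RNA polymerase I transcribes a long precursor RNA. Box C/D and box H/ACA snoRNPs, particles of a small nucleolar RNA with a core set of proteins, methylate riboses and convert uridines to pseudouridine on that precursor. The small subunit processome assembles on its 5' part and directs the cuts that release small subunit RNA, while a separate series of factors builds the large subunit, and both particles are finished on the way to and in the cytoplasm. The genes are known targets of MYC, a factor that binds the E-box, and the mRNAs of ribosomal proteins begin with a pyrimidine tract through which their translation is regulated.

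The start-site sequences are shown because of the pyrimidine tract that begins ribosomal protein mRNAs, a feature by which these genes were not listed. The feature itself was chosen with earlier results of these data known. In the RefSeq promoter table (GRCh38.p14, 250 bases before to 50 bases after each annotated start), 44 of the 50 genes were matched, and NOP58, MPHOSPH10, NOLC1, BOP1, RRP1B and RRP12 were not. A start was called a pyrimidine start where the transcript begins with C followed by 4 pyrimidines (C or T) on the transcribed strand. For this feature and for the E-box, a gene was counted where any of its listed starts matched. EBNA1BP2 and NPM1 have 2 listed starts each, and the matching start is shown. A pyrimidine start was found in 5 factors (11.4% of those matched), against 5.14% of the 27305 genes in the promoter table and 7.59% of the kept genes. The lines below run from 10 bases before the start to 20 bases from it, 5' to 3' on the strand of the gene, with the pyrimidine run from the start in capitals.
EBNA1BP2, chr1:43172551-43172580, minus strand: tcccctttccCCTCCCCCggggtcctcctc
NPM1, chr5:171387839-171387868, plus strand: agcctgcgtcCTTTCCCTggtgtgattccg
NOB1, chr16:69754907-69754936, minus strand: gcgcgctcccCTCTCacgcagccaacatgg
FBL, chr19:39846360-39846389, minus strand: cgcctgcgctCTTTTCCacgtgcgaaagcc
UTP14A, chrX:129906154-129906183, plus strand: aaattgctttCCTTCggcttccgttcttgg
The runs were 8 bases in EBNA1BP2 and NPM1, 7 in FBL and 5 in NOB1 and UTP14A.

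The E-box CACGTG, which reads the same on both strands, was found in the promoter window of 21 of the 44 matched factors (47.7%), against 8.77% of all genes in the promoter table and 13.1% of the 8754 kept genes in it. It overlaps the pyrimidine run in FBL, in which it begins at base 7 of the transcript. In the lines below, which give the E-box in capitals with 12 bases on each side, it begins 237, 170, 16 and 5 bases before the start of EBNA1BP2, NOP10, UTP4 and RRP9, and at base 5 of the RCL1 transcript.
EBNA1BP2, chr1:43172790-43172819, minus strand: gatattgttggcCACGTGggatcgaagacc
NOP10, chr15:34343289-34343318, minus strand: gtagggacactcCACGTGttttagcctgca
UTP4, chr16:69132621-69132650, plus strand: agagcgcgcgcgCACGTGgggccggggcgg
RRP9, chr3:51941892-51941921, minus strand: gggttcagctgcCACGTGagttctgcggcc
RCL1, chr9:4792936-4792965, plus strand: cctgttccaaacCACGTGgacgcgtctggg
A match of letters is a description of the window and not a measured binding site, and no member was read as regulated through it.

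The factors were expressed over a range of more than 3 orders of magnitude. Mean FPKM over the libraries ran from 0.33 for MDN1, a large ATPase of the pre-60S particle, to 869 for NPM1, the nucleolar chaperone nucleophosmin. Of the 50 genes, 8 had a mean above 100 FPKM and 8 a mean under 5 FPKM. Together they made up 0.346% of the summed FPKM in the WT sub-polysome library and 0.485% in WT polysomes, and 0.292% and 0.442% in the corresponding K177Q libraries. Longer genes had lower levels: Spearman's rho between coding length and mean FPKM was -0.54 over the 48 kept factors and -0.39 over the 10304 kept genes with a coding length, as a description over genes that share the same libraries.

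**Figure D1:**
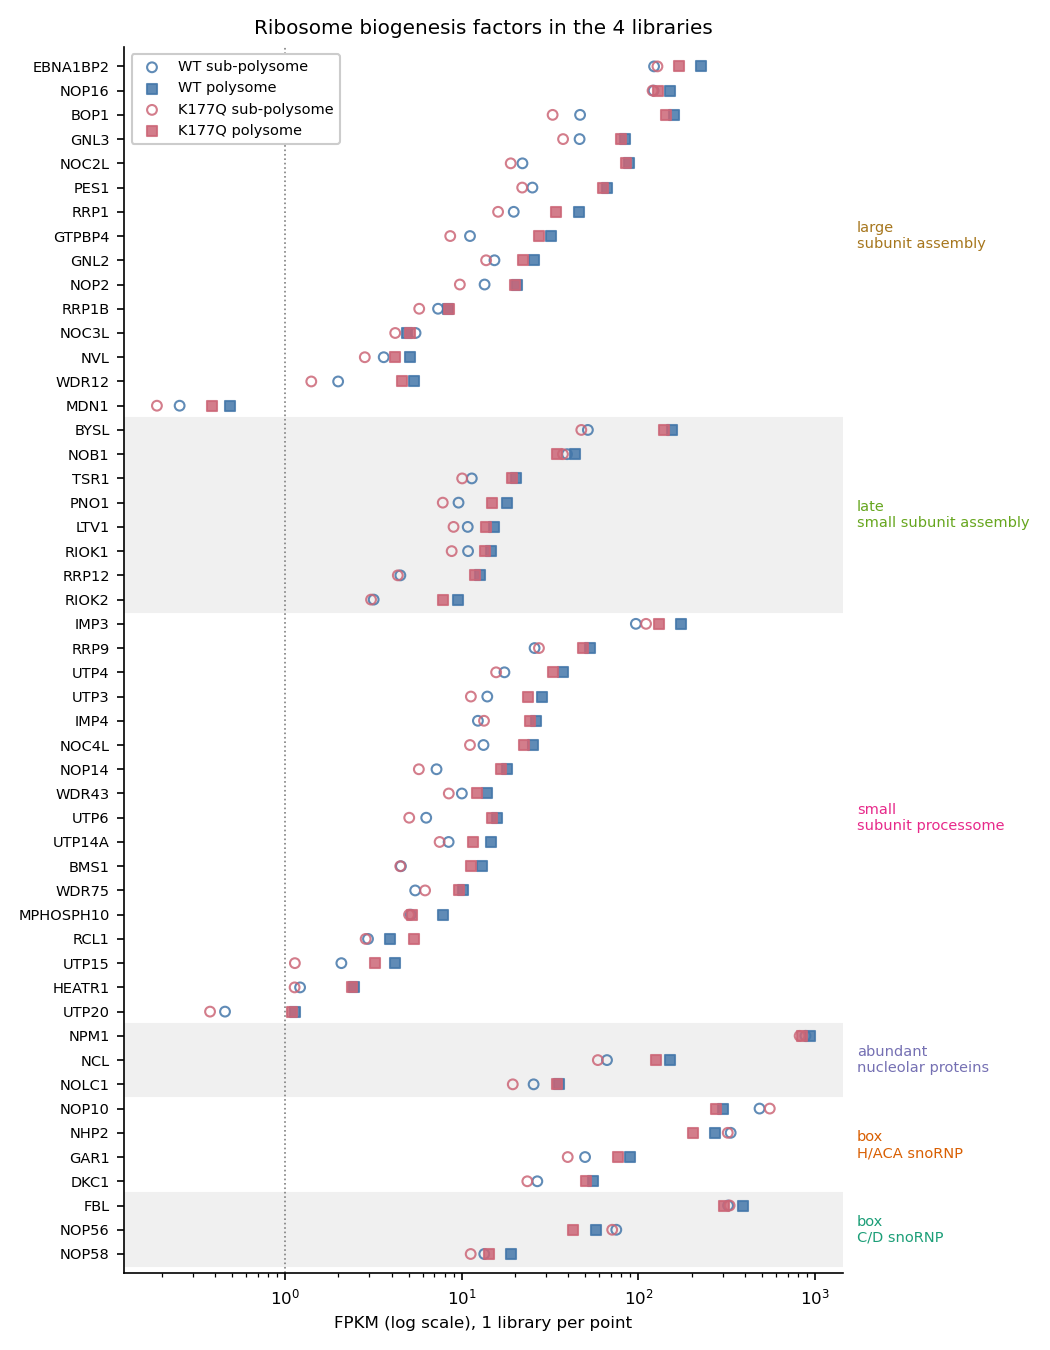
FPKM of the 50 ribosome biogenesis factors (log axis) in the 4 libraries, 1 library per point, with genes grouped by role and ordered by mean; open circles are sub-polysome and filled squares polysome libraries, blue WT and red K177Q, and the dotted line marks 1 FPKM. For most genes the squares lie to the right of the circles, NOP10, NHP2 and NOP56 show the opposite order, and UTP20 and MDN1 have means under 1 FPKM.

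Most factors were richer in polysomes than in the sub-polysome fraction of both cell types. In WT cells the median log2 polysome to sub-polysome ratio over the 48 kept factors was 0.87 (1.83-fold), beside 0.14 over all kept genes, and in K177Q cells it was 0.90 (1.87-fold), beside 0.16. The ratio was at least 1.5-fold in 32 of the 48 factors in WT cells, a size that 28.1% of all kept genes reached, and in 33 in K177Q cells, against 30.2% of all kept genes. Only NOP10 was at least 1.5-fold lower in WT polysomes (19.1% of all kept genes were), and NOP10, NHP2 and NOP56 were in K177Q polysomes (21.3%). With every library rescaled to the same total, no factor was lower by that size in either cell type. By this scaling 37 factors in WT and 40 in K177Q cells were higher by it. The median of all kept genes was then 0.28 in WT and 0.59 in K177Q cells, beside 1.005 and 1.33 for the factors. In K177Q cells the median kept gene was thus itself 1.5-fold higher, and the shares of all kept genes were not counted for this scaling. With equal totals of all but ribosomal protein genes, NOP10 alone was lower by 1.5-fold in WT and 1 factor in K177Q cells. For the 83 kept cytosolic ribosomal protein genes, whose products these factors assemble, the medians as deposited were on the other side of 0. They were -0.53 in WT and -1.13 in K177Q cells. Of the 83, 62 were below 0 in WT and 81 in K177Q cells, beside 42.7% and 42.8% of all kept genes. Over the 48 factors the ratios of the cell types ranked genes alike, with a Spearman's rho of 0.90, as over all kept genes with a coding length (0.90), a description of libraries that share a protocol and 1 lysate per cell type.

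**Figure D2:**
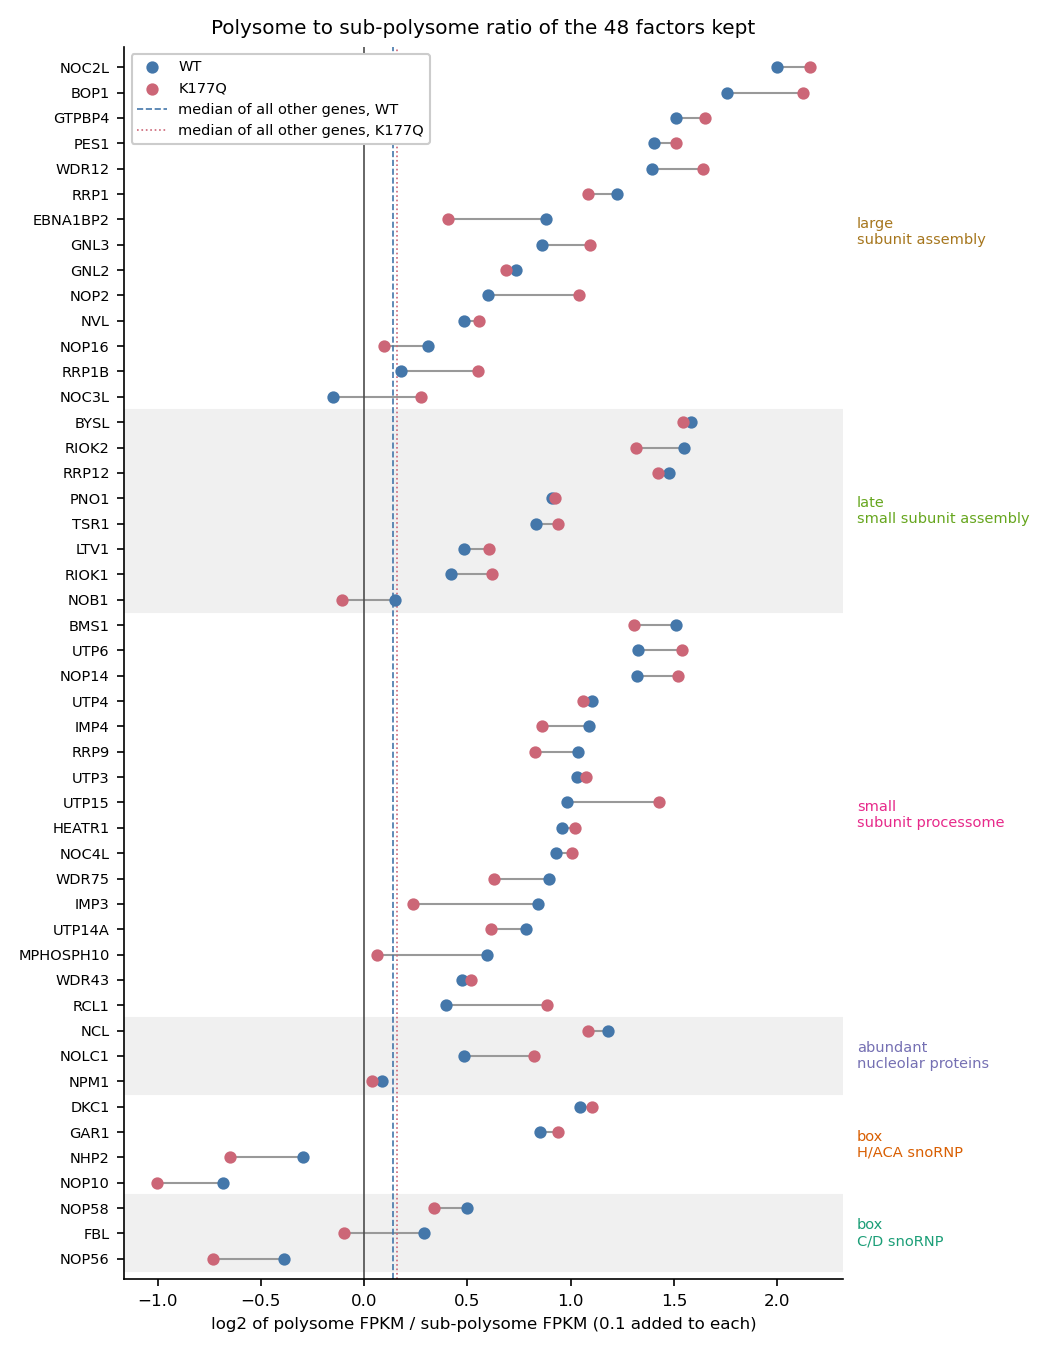
Log2 of polysome over sub-polysome FPKM of the 48 kept factors in WT (blue) and K177Q (red) cells, 1 library per fraction, grouped by role and ordered by the WT value; dashed and dotted lines are the medians of all other kept genes. Values ran from -0.68 (NOP10) to 2.00 (NOC2L) in WT and from -1.004 (NOP10) to 2.16 (NOC2L) in K177Q cells, and the longest connecting lines belong to IMP3 and MPHOSPH10.

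Between the cell types, translation efficiency of the factors hardly shifted as a group. The median log2 K177Q to WT ratio was 0.03 over the 48 factors and -0.01 over all kept genes, with 25 factors above 0 and 23 below. The ratios ran from -0.60 (IMP3) to 0.49 (RCL1). No factor was at least 1.5-fold higher in K177Q cells, where 4.08% of all kept genes were, and 1 factor, IMP3, was at least 1.5-fold lower, where 7.03% of all kept genes were. Ribosomal protein genes had a median of -0.64, and 54 of the 83 were at least 1.5-fold lower. The zero point of this ratio depends on scaling: with every library rescaled to the same total, the median of all kept genes moved from -0.01 to 0.29 and that of the factors to 0.32, a shift that applies to all genes alike. The difference between the medians of the factors and of all genes, 0.04, was 0.07 among genes with a mean of 10 FPKM or more and -0.01 once the trend on coding length was taken out.

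A small difference ran through the levels in both fractions. Polysome FPKM was lower in K177Q than in WT cells for 45 of the 48 factors, with a median log2 ratio of -0.19 beside -0.02 for all kept genes, of which 53.7% were below 0. Sub-polysome FPKM was lower for 41 of the 48, with a median of -0.18 beside -0.004 for all kept genes, of which 50.6% were below 0. Lower values in both fractions were found for 38 factors (79.2%), against 29.8% of all kept genes. These differences were small for each gene: none of the 48 reached 1.5-fold in polysomes, where 2.13% of all kept genes were higher and 3.13% lower by that size, and UTP15 alone reached it in the sub-polysome fraction, on the lower side, where 4.01% of all kept genes were higher and 2.94% lower. Relative to the median of all genes, the medians of the factors were -0.17 in polysomes and -0.18 in the sub-polysome fraction, and -0.15 and -0.25 among genes with a mean of 10 FPKM or more. Rescaling a library moves all its genes alike and so bears only on the values relative to 0. With equal totals, 37 of the 48 factors were below 0 in polysomes and 48 in the sub-polysome fraction. The medians of all kept genes were then 0.07 and -0.21, beside -0.10 and -0.39 for the factors. The shares of all kept genes below 0 were not counted for this scaling. In 46 of the 48 factors no K177Q to WT ratio (translation efficiency, polysome or sub-polysome FPKM) reached 1.5-fold, beside 84.2% of all kept genes.

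**Figure D3:**
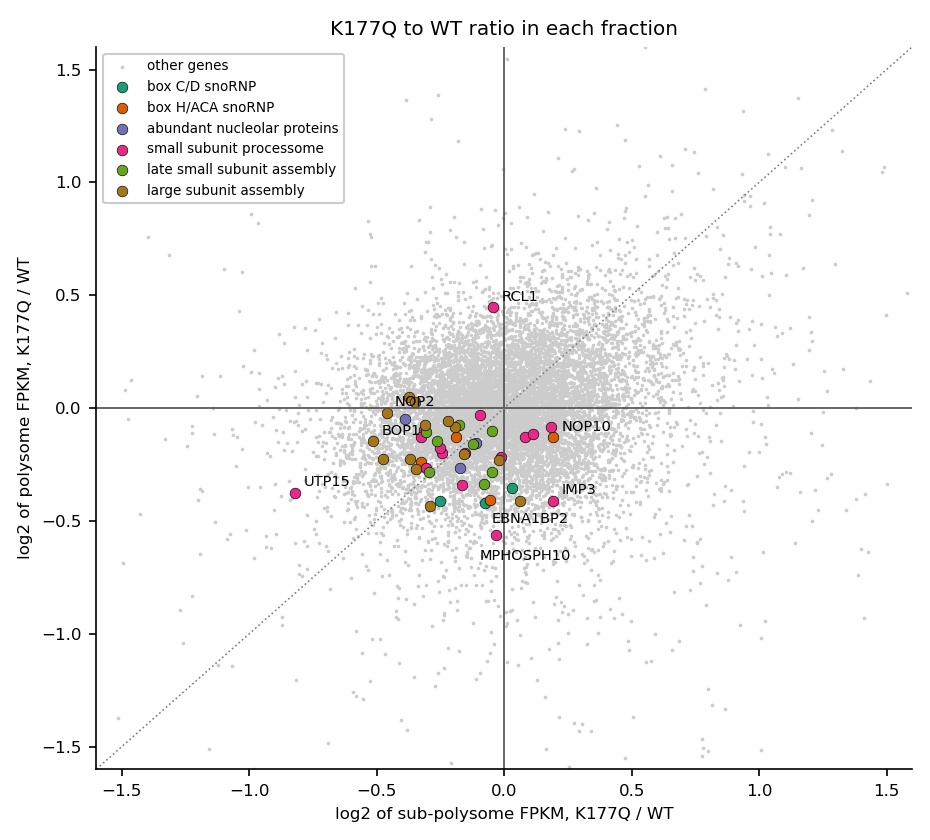
Log2 K177Q to WT ratio of sub-polysome FPKM (horizontal) and polysome FPKM (vertical), 1 library per group, for the 48 kept factors coloured by role and the 10857 other kept genes in grey, of which 72 lie outside the axes; on the dotted diagonal translation efficiency is equal in both cell types. Of the coloured points, 38 lie in the lower left quadrant, UTP15 is farthest to the left at -0.82, and RCL1 is the highest at 0.45.

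The 3 box C/D snoRNP proteins examined all had lower polysome FPKM in K177Q cells, as 45 of the 48 factors and 53.7% of all kept genes did. FBL, the methyltransferase fibrillarin, was at 322 FPKM in the WT sub-polysome library, 393 in WT polysomes, 328 in the K177Q sub-polysome library and 307 in K177Q polysomes. It was thus the most abundant of the group, higher in polysomes than in the sub-polysome fraction of WT cells and lower in K177Q cells as deposited, and its log2 translation efficiency ratio was -0.39. With every library rescaled to the same total, FBL was higher in polysomes in both cell types (log2 ratios of 0.42 and 0.34). NOP58, a scaffold of the particle, had 13.4 and 19.0 FPKM in the WT and 11.2 and 14.2 FPKM in the K177Q sub-polysome and polysome libraries, in that order. Its translation efficiency ratio of -0.16 was the smallest difference of the group. NOP56, the partner scaffold, went from 74.9 to 57.2 FPKM between the fractions of WT cells and from 71.0 to 42.7 FPKM between those of K177Q cells. NOP56 was therefore lower in polysomes in both cell types, and its ratio between them was -0.34.

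Of the box H/ACA snoRNP proteins, NOP10 and NHP2 were lower in polysomes and GAR1 and DKC1 higher. NOP10, the smallest factor examined with a coding length of 192 bases, was at 485 and 302 FPKM in the WT and at 554 and 276 FPKM in the K177Q sub-polysome and polysome libraries. NHP2, with a coding length of 459 bases, was at 333 and 271 FPKM and at 320.4 and 204.5 FPKM in the same order. For these short core subunits the polysome value was the lower in each cell type, and their log2 translation efficiency ratios were -0.32 for NOP10 and -0.35 for NHP2. With the trend on coding length taken out, these ratios were 0.05 for NOP10 and -0.11 for NHP2. GAR1 went from 49.9 to 90.0 FPKM between the fractions in WT cells and from 39.8 to 76.2 FPKM in K177Q cells, with a ratio of 0.09. DKC1, the pseudouridine synthase dyskerin, went from 26.8 to 55.3 FPKM and from 23.5 to 50.5 FPKM, with a ratio of 0.06. GAR1 and DKC1 were thus 1.80- to 2.15-fold higher in polysomes, over both cell types. Of the exon bases of NHP2, 48.2% also lie in exons of a gene on the opposite strand.

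Among the abundant nucleolar proteins, NPM1 had nearly equal FPKM as deposited in the fractions of each cell type, and NCL did not. NPM1 was at 882 and 936 FPKM in WT and at 818 and 840.15 FPKM in K177Q sub-polysome and polysome libraries, with a ratio of translation efficiency of -0.05. NPM1 also has 49 pseudogenes named after it, and how the counting shared reads among such copies is not given in the sources used here. NCL, the RNA-binding protein nucleolin, went from 66.4 to 150.3 FPKM in WT and from 58.9 to 125 FPKM in K177Q cells, a ratio of -0.09. NOLC1, a chaperone of snoRNPs, went from 25.5 to 35.6 FPKM and from 19.4 to 34.5 FPKM. Its polysome values were close to each other and its sub-polysome value was lower in K177Q cells (log2 ratio -0.39), which gave the highest translation efficiency ratio of this group, 0.34.

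The small subunit processome held both ends of the range. The 16 kept members had a median log2 polysome to sub-polysome ratio of 0.97 in WT and 0.94 in K177Q cells, and a median translation efficiency ratio of -0.002. As deposited, 14 of them in WT and 13 in K177Q cells were at least 1.5-fold higher in polysomes, beside 28.1% and 30.2% of all kept genes. IMP3, a U3 snoRNP protein, was at 96.7 FPKM in the WT sub-polysome library, 173 in WT polysomes, 110.4 in the K177Q sub-polysome library and 130.3 in K177Q polysomes. Polysome FPKM of IMP3 was lower and sub-polysome FPKM higher in K177Q cells, which together gave the log2 ratio of -0.60 (1.52-fold lower). IMP3 lies at chr15:75639085-75648706 on the minus strand of GRCh38, its canonical transcript is 1 exon with a coding length of 552 bases, and 54.1% of its exon bases also lie in exons of genes on the opposite strand. The counting error of this ratio was approximately 0.05 on the log2 scale, an error that leaves out all variation between cultures. IMP3 passed 1.5-fold narrowly: the ratio was -0.30 with every library rescaled to the same total, -0.36 with equal totals of all but ribosomal protein genes, and -0.40 once the trend on coding length was taken out, each short of 1.5-fold. MPHOSPH10, the protein to which IMP3 and IMP4 bind, was at 5.14 and 7.80 FPKM in WT and at 5.02 and 5.25 FPKM in K177Q cells, with the next lowest ratio, -0.53, and 8 pseudogenes are named after it. IMP4 had 12.3, 26.3, 13.4 and 24.3 FPKM in the same order, a ratio of -0.23.

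At the other end of the processome, RCL1 and UTP15 had ratios of 0.49 and 0.45, and both are of low abundance. RCL1, a protein needed for cleavage of the precursor, was at 2.94 FPKM in the WT sub-polysome library, 3.90 in WT polysomes, 2.85 in the K177Q sub-polysome library and 5.35 in K177Q polysomes. The difference of RCL1 lay in polysomes, where its log2 K177Q to WT ratio of 0.45 was the highest of the 48. UTP15, a subunit of the t-UTP subcomplex, which binds the precursor early, was at 2.08, 4.21, 1.13 and 3.22 FPKM in the same order. The difference of UTP15 lay in the sub-polysome fraction, with a log2 ratio of -0.82, while its polysome value was also lower (-0.37). Approximately 132 fragments of UTP15 and 134 of RCL1 stood behind their lowest values, which gives counting errors of about 0.18 and 0.22 on the log2 translation efficiency ratio. With 1 FPKM added in place of 0.1, the ratio of UTP15 was 0.23. The other t-UTP subunits among the factors did not share this pattern: HEATR1 had a ratio of 0.07, WDR43 0.05, WDR75 -0.27 and UTP4 -0.04. BMS1, a GTPase of the processome, had the highest WT polysome to sub-polysome ratio of the group at 1.51, and UTP6 had the highest K177Q value at 1.54. For BMS1, after which 19 pseudogenes are named, the same doubt about shared reads holds as for NPM1. UTP20, below the abundance limit, had 0.46 and 1.13 FPKM in WT and 0.38 and 1.09 FPKM in K177Q cells.

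Factors that finish the small subunit had translation efficiency ratios close to 0. The log2 ratios of translation efficiency of these 8 genes lay between -0.26 and 0.20 (median -0.01). All 8 were lower in K177Q cells in both fractions, as were 79.2% of the 48 factors and 29.8% of all kept genes. BYSL (bystin) was the most abundant, at 51.7 FPKM in the WT sub-polysome library, 155 in WT polysomes, 47.5 in the K177Q sub-polysome library and 139 in K177Q polysomes. It was close to 3-fold higher in polysomes in each cell type, with a ratio of -0.04 between them. NOB1, the nuclease that makes the last cut of small subunit RNA, was at 39.4, 43.8, 37.4 and 34.7 FPKM in the same order. Its polysome value exceeded the sub-polysome value in WT cells and fell short of it in K177Q cells, where it exceeded it with every library rescaled to the same total (log2 ratio 0.33), and at -0.26 its translation efficiency ratio was the lowest of the group. RIOK1, a cytoplasmic kinase, had 10.8, 14.5, 8.76 and 13.5 FPKM and the highest ratio, 0.20. The remaining members, LTV1, TSR1, PNO1, RIOK2 and RRP12, had ratios from -0.23 (RIOK2) to 0.12 (LTV1). In LTV1, 34.7% of exon bases are shared with another gene on the same strand.

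Large subunit factors held the highest polysome to sub-polysome ratios, and of the role groups they had the lowest sub-polysome median in K177Q relative to WT cells. The 14 kept members had median log2 polysome to sub-polysome ratios of 0.87 in WT and 1.06 in K177Q cells, a median translation efficiency ratio of 0.15, and medians of -0.18 in polysomes and -0.33 in the sub-polysome fraction between the cell types. Of the 14, 13 were lower in the K177Q sub-polysome library, EBNA1BP2 being the exception, beside 41 of the 48 factors and 50.6% of all kept genes. NOC2L, a nucleolar partner of pre-ribosomes, had the highest ratio of all factors, from 22.04 to 88.3 FPKM in WT and from 18.9 to 84.8 FPKM in K177Q cells. The PeBoW complex, made of PES1, BOP1 and WDR12, was followed as a unit. BOP1 was at 46.7 and 158 FPKM in WT and at 32.7 and 143 FPKM in K177Q sub-polysome and polysome libraries, and its log2 sub-polysome ratio between cell types was -0.52. PES1 was at 25.1 and 66.5 FPKM and at 21.97 and 62.7 FPKM, and WDR12 at 1.99 and 5.39 FPKM and at 1.40 and 4.59 FPKM. All 3 subunits were more than 2.6-fold higher in polysomes in both cell types, and their translation efficiency ratios were 0.37 (BOP1), 0.25 (WDR12) and 0.11 (PES1).

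The extremes of the large subunit group were NOP2 and EBNA1BP2. NOP2, a methyltransferase of large subunit RNA, was at 13.5 FPKM in the WT sub-polysome library, 20.4 in WT polysomes, 9.74 in the K177Q sub-polysome library and 20.1 in K177Q polysomes. Its polysome values were nearly equal and its sub-polysome value was lower in K177Q cells, for a ratio of 0.44. Another annotated gene on the same strand shares 96.2% of the exon bases of NOP2, so its reads cannot be assigned to NOP2 alone. EBNA1BP2, which has the pyrimidine run shown above at a listed start, was at 123, 226, 128 and 169.8 FPKM in the same order, with a ratio of -0.47. In EBNA1BP2 the difference lay in polysomes, where its log2 K177Q to WT ratio was -0.41. NOC3L (5.47, 4.92, 4.20 and 5.09 FPKM) and RRP1B (7.33, 8.32, 5.74 and 8.46 FPKM), a nucleolar protein, followed NOP2, with ratios of 0.42 and 0.37 and polysome values slightly above WT in K177Q cells. NOP16 was at 122 and 151 FPKM in WT and at 120.2 and 129 FPKM in K177Q cells, a ratio of -0.21. RRP1, GNL2, GNL3, GTPBP4 and NVL had ratios from -0.14 (RRP1) to 0.23 (GNL3), and MDN1, below the abundance limit, was at 0.25, 0.49, 0.19 and 0.39 FPKM.

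Within the factors, translation efficiency ratios followed coding length as they did in all genes. With the 48 factors ordered by coding length, the 16 shortest (192 to 1425 bases) had a median of -0.21, the 16 next (1425 to 2058 bases) 0.07 and the 16 longest (2097 to 6432 bases) 0.09. Other kept genes in the same length ranges had medians of -0.12 (5590 genes), 0.07 (2007 genes) and 0.19 (2418 genes). Spearman's rho between the ratio and coding length was 0.34 over the factors and 0.46 over all kept genes with a coding length, and between the ratio and mean FPKM it was -0.39 and -0.32. Shorter and more abundant factors therefore had lower ratios, and the parts of length and abundance cannot be told apart here, since the measures themselves go together. Polysome FPKM of the factors was below that of other genes of like length in each range, with K177Q to WT medians of -0.24, -0.20 and -0.09 beside -0.07, 0.03 and 0.05. In the sub-polysome fraction the medians were -0.05, -0.25 and -0.20 beside 0.06, -0.05 and -0.14.

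**Figure D4:**
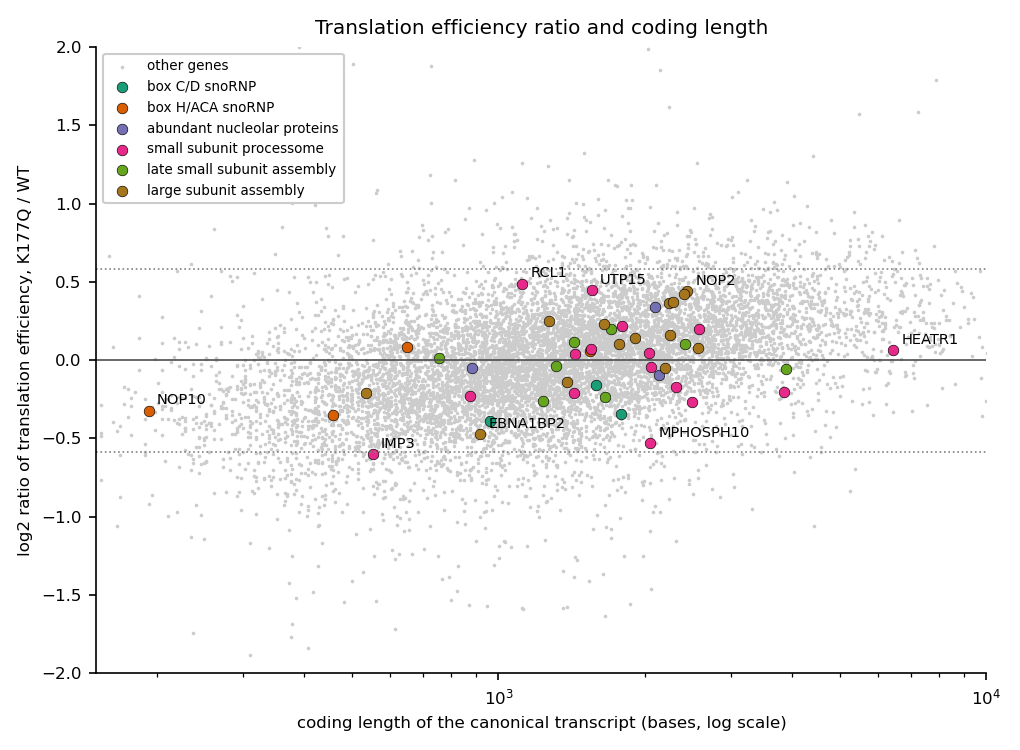
Log2 K177Q to WT ratio of translation efficiency against coding length of the canonical transcript (log axis) for the 48 kept factors, coloured by role, and the 10256 other kept genes with a coding length in grey, of which 64 lie outside the axes; dotted lines mark 1.5-fold. The coloured points lie within the grey cloud, IMP3 is the only factor past a dotted line, and the 4 shortest factors lie below 0.

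The sequence features divided the factors unequally. The 5 factors with a pyrimidine start (EBNA1BP2, NPM1, NOB1, FBL and UTP14A) had translation efficiency ratios below 0, with a median of -0.26, beside a median of 0.06 in the 37 kept factors that were matched and lack it. Their median log2 polysome to sub-polysome ratio was 0.29 in WT and 0.04 in K177Q cells, beside 0.93 and 1.004 in the 37. Over all 664 kept genes with such a start the median translation efficiency ratio was -0.08, and -0.05 over the 617 of them that are not ribosomal protein genes. Ratios below 0 were found in 60.4% of the 664 and in 51.1% of all kept genes, beside 40.5% of the 37 factors. With every library rescaled to the same total, the ratio was 0.25 for NPM1, 0.04 for NOB1, -0.09 for FBL and -0.175 for EBNA1BP2. Mean FPKM was 869 for NPM1, 337 for FBL, 162 for EBNA1BP2, 38.8 for NOB1 and 10.5 for UTP14A. Their coding lengths were 882, 963, 918, 1236 and 2313 bases in the same order. The part of the start sequence, of the level or of coding length was not tested. The 19 kept factors with an E-box had a median translation efficiency ratio of 0.01, beside 0.04 in the 23 matched without it. Their K177Q to WT medians were -0.15 beside -0.23 in polysomes and -0.17 beside -0.18 in the sub-polysome fraction. Values below 0 in both fractions were found for 12 of the 19 (63.2%) and 21 of the 23 (91.3%), beside 29.8% of all kept genes. The difference between the 19 and the 23 was not tested. Within the bounds of 7 factors (NOP56, NOP58, DKC1, NCL, WDR43, TSR1 and GNL3) the annotation places 25 snoRNA genes. These hosts had a median log2 polysome to sub-polysome ratio of 0.83 in WT and a translation efficiency ratio of 0.05, beside 0.89 and 0.01 for the 41 other kept factors.

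Genes of the same process that are not among the 50 were also richer in polysomes, and their levels in K177Q relative to WT cells differed between the lists. A list of 33 further small subunit factors (32 kept) had median log2 polysome to sub-polysome ratios of 0.81 in WT and 0.89 in K177Q cells, and K177Q to WT medians of 0.02 for translation efficiency, -0.12 in polysomes and -0.16 in the sub-polysome fraction. For 41 further large subunit factors, all kept, these medians were 0.75, 0.78, 0.05, -0.17 and -0.24. Among the 41 large subunit genes, 2 had at least 1.5-fold higher translation efficiency in K177Q cells, as 4.08% of all kept genes did. They were NOL9, a kinase that acts on precursor RNA ends (log2 ratio 0.71), and LSG1, a GTPase of late large subunit maturation (0.66). The 15 genes of RNA polymerase I transcription had medians of 0.71, 0.81, 0.02, -0.14 and -0.08 in the same order. Of these, TTF1 (0.93), a transcription termination factor, and TAF1A (0.61), a subunit of the promoter selectivity factor, were past 1.5-fold on the higher side. NOL9, LSG1, TTF1 and TAF1A were of low abundance, with highest values of 1.82, 6.30, 4.85 and 9.03 FPKM, each in K177Q polysomes. The counting errors of their ratios were not estimated. The 14 genes of the RNA exosome, which trims precursor ends, had medians of 0.70, 0.72, -0.02, -0.14 and -0.03, with none past 1.5-fold in translation efficiency. Values below 0 in both fractions were found for 65.6% of the small subunit, 63.4% of the large subunit, 40.0% of the polymerase I and 50.0% of the exosome genes, beside 79.2% of the 48 factors, differences that were not tested. No gene of the small subunit or exosome list was past 1.5-fold in translation efficiency in either direction, and none of the large subunit or polymerase I genes was past it on the lower side.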

How the data were processed

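The authors deposited 1 table of FPKM per gene, fragments per kilobase normalized to the mapped fragments of each library, and these values were used as given. The submitters' processing notes name STAR 2.7, StringTie 2.1.5 and hg38. The libraries were made with a directional kit, but the annotation and the handling of strand and shared reads in counting are not given in the sources used here. Another 4 value columns, which the headers number as replicate 1 of the same conditions, correspond to none of the samples listed and were left out, so replicate error is not assessed here. Groups came from the sample labels.

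The 50 factors, their 6 role groups and the other gene lists were chosen with earlier results of these data known. In each role group the text gives in full the gene with the highest mean FPKM, those with the highest and lowest translation efficiency ratio, and any past 1.5-fold in a K177Q to WT comparison; other genes are named as examples, chosen after their values were seen. The sequence features were also chosen with earlier results known. Ratios were computed in Python 3.11.15 with pandas 2.3.3 and numpy 2.4.6 and tested on simulated data. Coding lengths and exon overlaps are those of GENCODE 44 canonical transcripts, and promoters those of RefSeq. Fragment numbers were approximated from the lowest FPKM values of genes with at most 3 exons, with limits set after the values were seen. They cover counting error only. The alternatives were pseudocounts of 1 and 0.01, no filter or a mean of 10 FPKM, 4 scalings, a 2-fold threshold, and removal of the trend on coding length (lowess, span 0.3).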

Additional observations from a re-analysis of the deposited data

Results flagged for a closer look

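The polysome to sub-polysome ratio had opposite signs in WT and K177Q cells for 3 factors, with 1 library in each fraction, so that the difference between the cell types was not tested. For FBL the log2 ratio was 0.29 in WT and -0.10 in K177Q cells. For NOB1 it was 0.15 and -0.11. NOC3L went the other way, from -0.15 to 0.27. Opposite signs were found in 6.25% of the kept factors and in 12.3% of all kept genes, 1338 in number. With every library rescaled to the same total, FBL (0.42 and 0.34) and NOB1 (0.29 and 0.33) had the same sign in both cell types, and NOC3L (-0.02 and 0.70) kept opposite signs.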

How the results depend on the processing

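No paired analysis was possible because 1 library was used for each condition, so none could be left out either. Rescaling to equal totals moved the factors' median log2 polysome to sub-polysome ratio to 1.005 in WT and 1.33 in K177Q cells, their translation efficiency ratio to 0.32, with 7 factors higher and 0 lower by 1.5-fold, and their sub-polysome K177Q to WT ratio to -0.39. By the same scaling 18.2% of all kept genes were higher and 2.65% lower. Equal totals without ribosomal protein genes gave 1.11 in K177Q cells, a translation efficiency ratio of 0.26, with 6 higher and 0 lower (13.9% and 3.15% of all kept genes), and -0.38 in the sub-polysome fraction. Size factors gave 0.79 in K177Q cells, centring on all genes 0.74 (0.73 in WT), and removal of the trend on coding length 0.72. At 2-fold, 0 factors were lower in translation efficiency, beside 1.90% of all kept genes. The median translation efficiency ratio was below 0 with the trend removed (-0.02) and in the 36 factors with a mean of at least 10 FPKM (-0.01). UTP15 no longer reached 1.5-fold in the sub-polysome fraction with a pseudocount of 1, and 5 factors reached it, on the lower side, under either rescaling of totals. The share of all kept genes lower by that size was not counted for these scalings. Medians of the factors in polysomes and in the sub-polysome fraction were below 0 under every alternative run for them. After rescaling to equal totals, 37 of 48 factors were below 0 in polysomes. The medians of all kept genes were then 0.07 in polysomes and -0.21 in the sub-polysome fraction. Over the 16 factors given in full, 102 of 142 alternative translation efficiency ratios moved by less than 0.1 on the log2 scale or kept the call. Another 37 moved further, and 3, those of IMP3, lost the call. None reversed a call, but IMP3 alone had a call that could reverse. Equal totals took NOP58 (0.14), NCL (0.20), NPM1 (0.25), BYSL (0.26) and NOB1 (0.04) from below to above 0. They also took NOLC1 (0.64), UTP15 (0.73), RCL1 (0.78) and NOP2 (0.74) past 1.5-fold. The lowest factors rest on few fragments, and with 1 library per condition the spread between cultures was not measured.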
